A study of Homo sapiens and Mus musculus with 13 samples.

Results

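The nuclear genes of oxidative phosphorylation were followed through RNA-Seq of mammary tumors and of breast cancer cell lines. Members were the gene symbols that start with the names of the subunits of the 5 complexes, NDUFA, NDUFB, NDUFC, NDUFS and NDUFV for complex I, SDHA to SDHD for complex II, UQCR for complex III, COX4I, COX5, COX6, COX7 and COX8 for complex IV and ATP5 for complex V, with a mean of at least 1 FPKM over the libraries of a table. FPKM is the fragment count of a gene after division by its length and by the depth of the library. In the cell lines 90 of 103 such symbols were members, of 24523 symbols in all, and in the tumors 99 of 110, of 55228. Complexes I to V had 44, 8, 8, 13 and 17 members in the cell lines and 48, 8, 8, 16 and 19 in the tumors. The names also take in factors that assemble the complexes without being part of them. The cell line members were 75 subunits, 11 assembly or accessory factors, 2 pseudogene symbols and 2 joint entries that hold a subunit gene together with its neighbors. The tumor members were 81 subunits, 12 such factors, 2 gene copies and 4 pseudogene symbols. NDUFA4 starts with the name of complex I and is counted there, although its protein is now placed in complex IV. Human NDUFC2 stands in a joint entry under another gene's name and is no member.

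Oxidative phosphorylation takes place in the inner mitochondrial membrane. Complexes I and II pass electrons from NADH and succinate to ubiquinone, complex III passes them to cytochrome c, and complex IV hands them to oxygen. The proton gradient that complexes I, III and IV build drives ATP synthase, complex V. All complexes except II also contain subunits encoded by mitochondrial DNA, and several subunits of complex IV have a second isoform made in muscle, brown fat or testis.

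The tumors were 3 Trim11+/+ and 3 Trim11+/- libraries from female mice at 3 months of age, each library taken here as 1 mouse. All mice were hybrids, FVB/N-Tg(MMTV-PyVT)634Mul/J crossed to C57BL/6N, in which a promoter active in the mammary epithelium drives a viral oncogene in both genotypes, and the targeted allele lacked exons 2 to 6 of Trim11. The cell lines were 7 libraries of MDA-MB-231, an established line of basal-like human breast cancer, all of them infected with a virus that brings Cas9 and a guide. Control carried a guide against GFP, TRIM11-KD1 and TRIM11-KD2 one of a pair of guides against TRIM11, and KDM5C-KD1 and KDM5C-KD2 one of a pair against KDM5C. In the double knockdown, DKD1 and DKD2 carried the second KDM5C guide with the first and the second TRIM11 guide. Each line was sequenced once. TRIM11 is a ubiquitin ligase and KDM5C a histone demethylase, and the study asked what loss of the first does through the second.

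The tumor libraries held between 8793199 and 11117125 reads, recovered from the FPKM values, and the depth of the cell line libraries is unknown. Trim11 was lower in all 3 Trim11+/- tumors, at 22.8 to 24.0 FPKM against 35.8 to 39.2, and Kdm5c lay at 23.3 to 24.5 against 24.7 to 29.5. KDM5C was lower in all 4 lines with a KDM5C guide, at 18.8 to 22.7 FPKM against 28.4 to 30.3 in the other lines. TRIM11 mRNA was not lower in every line labelled with a TRIM11 guide. The library labelled TRIM11-KD1 had 13.4 FPKM and that labelled DKD1 16.1, against 12.6 in Control, while the libraries with the second guide had 10.6 for TRIM11-KD2 and 9.38 for DKD2. In these mRNA values the names TRIM11-KD1 and DKD1 thus rest on the label, and protein was not measured here. The study's methods state that the knockdown lines were checked by western blotting. Every direction given for a TRIM11 guide is one between labelled libraries. The tumors carried the luminal keratins Krt8 and Krt18 at 335 to 590 FPKM, while Krt19 was 149, 184 and 177 FPKM in Trim11+/+ and 204, 102 and 35 in Trim11+/- tumors, lowest in Trim11+/- tumor 3. The cell lines carried VIM at 1040 to 1310 FPKM, and ESR1 and PGR were at 0.0234 FPKM or lower. EPCAM, an epithelial marker that is low in this line, was 4.03 FPKM in Control, 5.0 and 6.77 in TRIM11-KD, 10.3 and 12.1 in KDM5C-KD and 12.3 and 12 in DKD.

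Members differed far more in level from gene to gene than from library to library. In the cell lines the most abundant member of complex I was NDUFS5, with a mean of 299 FPKM, of complex II SDHA, with 115, of complex III UQCRH, with 284, and of complex IV COX8A, with 527. Complex V was led by the joint entry of ATP5E and its neighbor SLMO2, with 584 FPKM, and among single genes by ATP5B, with 358. The median over the subunits of a complex was 75.7, 96.0, 73.8, 227 and 129 FPKM for complexes I to V. In the tumors the highest were Ndufc2 at 144, Sdhd at 103, Uqcr10 at 156, Cox6a1 at 292 and Atp5a1 at 303 FPKM, and the medians were 41.3, 56.3, 103, 86.7 and 68.0. Assembly and accessory factors ran from 4.13 FPKM for NDUFAF5 to 60.2 for NDUFAF2 in the cell lines and from 1.42 for Sdhaf3 to 25.1 for Ndufaf8 in the tumors, a range that overlapped with that of the subunits. Of the cell line members, 67 of 90 differed by less than 1.5 times between the highest and the lowest library and 4 by at least 2 times, ATP5C1, ATP5S and the isoforms of complex IV known from testis, COX6B2 and COX7B2. In the tumors these numbers were 75 and 9 of 99. The median coefficient of variation was 11.6% for the 80 cell line members with a mean of at least 10 FPKM and 12.9% for all 6724 such genes. It was 10.8% against 12.8% in the tumors, for 81 members and 6150 genes.

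Most tissue isoforms were at or near 0 in the cell lines. COX4I2, COX6A2 and COX8C were listed at 0 in all cell lines, and COX7A1 and NDUFA4L2 had means of 0.0811 and 0.0593 FPKM, while the ubiquitous forms COX4I1, COX6A1, COX7A2, COX8A and NDUFA4 lay at 227, 378, 187, 527 and 34.1. COX7A2L, which joins complexes III and IV, was at 86.0, and COX6B1 and COX7B, the partners of the testis forms, were at 233 and 235. COX7B2 was 6.97 in Control, 9.89 and 12.2 in TRIM11-KD, 10.4 and 20.7 in KDM5C-KD, and 5.41 and 11.6 in DKD (FPKM). KDM5C-KD2 stood above all other lines, and the knockdown groups overlapped with each other. Control was below both TRIM11-KD lines and both KDM5C-KD lines and lay between the DKD lines. The muscle markers ACTA1, CKM, MYLPF and MYH2 summed to 0.201 FPKM or less in every line. Just inside the limit of 1 FPKM were COX6B2 at 1.49 and SDHAP1, a pseudogene of SDHA, at 2.17, and just outside it SDHAP3 at 0.829 and NDUFB2-AS1 at 0.777. In the tumors Sdhaf3 and Cox6b2, at 1.42 and 1.48, were inside it, and Ndufa4l2 and Cox4i2, at 0.920 and 0.763, outside. Cox7b2 and Cox8c were listed at 0 in all tumors, where the ubiquitous forms Cox4i1, Cox6b1, Cox7a2, Cox7a2l, Cox7b, Cox8a and Ndufa4 lay at 207, 229, 120.3, 86.7, 119, 275 and 139 FPKM.

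The members' median level differed between single libraries. For each library the median over the members was taken of log2(FPKM + 1) minus the mean of the same gene over all libraries of the table. In the tumors this median was 0.06, 0.01 and -0.11 in Trim11+/+ and -0.05, -0.06 and 0.15 in Trim11+/-, while the median over all 17328 genes tested stayed between -0.01 and 0.02. Trim11+/- tumor 3 was the highest and Trim11+/+ tumor 3 the lowest, and the genotypes overlapped. In tumor 3 of Trim11+/- complex V was at 0.19, complex III at 0.16, complex IV at 0.15, complex I at 0.13 and complex II at 0.05. The same tumor was also the highest for the cytosolic ribosomal proteins, at 0.25 over 88 genes, the proteasome, at 0.21 over 31 genes, the mitochondrial ribosomal proteins, at 0.16 over 77 genes, and the 13 mitochondrially encoded subunits, at 0.18, and the lowest for glycolysis, at -0.11 over 16 genes. In the cell lines the members' median was 0.06 in Control, -0.12 and -0.04 in TRIM11-KD, -0.02 and 0.03 in KDM5C-KD and 0.03 and 0.10 in DKD. The line labelled TRIM11-KD1 was the lowest and DKD2 the highest. The cytosolic ribosomal proteins were likewise lowest in TRIM11-KD1, at -0.19 over 72 genes, and highest in DKD2, at 0.16. Other genes no longer than the median member in exonic length and with at least 10 FPKM were at -0.08 and 0.06 in those libraries, over 1032 genes. The part of transcript length in these shifts was not tested. In bulk RNA, fewer cells of a type and less RNA per cell cannot be told apart.

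**Figure D1:**
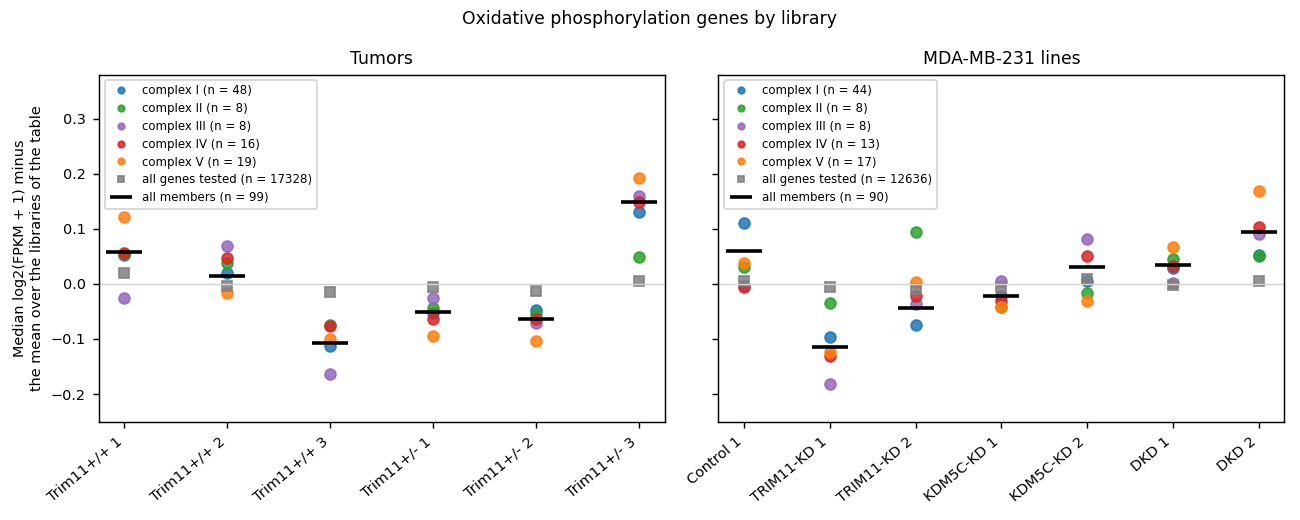
Median of log2(FPKM + 1) minus the mean over the libraries of the table (vertical axis, log2 units) for the members of each complex (colored circles), all members (black bars) and all genes tested (grey squares), in each tumor (left) and each MDA-MB-231 line (right). Trim11+/- tumor 3 lies highest, at 0.15 for all members, and Trim11+/+ tumor 3 and the line labelled TRIM11-KD1 lowest, at -0.11 and -0.12, while all genes stay near 0.

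In Trim11+/- against Trim11+/+ tumors the median of the members lay near 0. The median log2 difference was 0.03 over 99 members and -0.0048 over all genes tested, and 58 members were higher and 41 lower. By complex the medians were 0.04 for I, -0.03 for II, 0.04 for III, 0.03 for IV and 0.02 for V. At an unadjusted limma p under 0.05, 5 members were higher, 5.05% against 3.65% of all genes, and none was lower, against 3.29%. After Benjamini-Hochberg adjustment over all genes no member passed 0.05, and the lowest adjusted p of a member was 0.685, while 1 of all genes passed, 0.00577%. Groups did not overlap for 8 higher and 4 lower members, 8.08% and 4.04% against 6.60% and 6.78% of all genes. A permutation test of 1 gene cannot give a p under 0.1 with 3 tumors against 3, and all 12 of these members had that p. Markers of other cells also differed in sum. That of 3 myoepithelial markers was 302, 119 and 175 FPKM in Trim11+/+ and 84.0, 54.6 and 80.5 in Trim11+/- tumors, and that of 3 red cell markers 36.3, 43.6 and 46.7 against 17.2, 12.4 and 21.0, without overlap in either, and their part in the members' values was not tested. Each tumor library was taken as 1 mouse, and the p-values measure the spread between 3 tumor libraries of a genotype.

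Sdhaf1, which helps to insert iron-sulfur clusters into succinate dehydrogenase, had the largest positive difference. Its FPKM was 7.61, 6.48 and 5.96 in Trim11+/+ tumors and 7.77, 12.7 and 10.1 in Trim11+/- tumors, with 207, 164, 149 reads in Trim11+/+ and 215, 277, 269 in Trim11+/- tumors. Every Trim11+/- tumor was above every Trim11+/+ tumor, by a mean of 10.2 ± 2.44 against 6.68 ± 0.842 (SD), and the log2 difference was 0.52 (standard error 0.18, adjusted p = 0.685). Ndufc2, an accessory subunit of complex I and its most abundant member here, was 129.9, 130.1 and 119 in Trim11+/+ tumors and 135, 178 and 174 in Trim11+/- tumors, a log2 difference of 0.35 (standard error 0.13, adjusted p = 0.707). Ndufa11, which holds parts of the membrane arm together, was 62.4, 60.2 and 53.5 in Trim11+/+ tumors and 65.4, 74.5 and 78.5 in Trim11+/- tumors, a difference of 0.31 (standard error 0.11, adjusted p = 0.693). In both, all Trim11+/- tumors were above all Trim11+/+ tumors. Uqcrc2, a core protein of complex III, was 78.5, 77.3 and 70.9 in Trim11+/+ tumors and 85.5, 90.2 and 90.7 in Trim11+/- tumors, with a difference of 0.23 (standard error 0.09, adjusted p = 0.707). Cox6b1, a subunit of complex IV that faces the intermembrane space, was 217, 209 and 204 in Trim11+/+ tumors and 233, 254 and 257 in Trim11+/- tumors, with a difference of 0.23 (standard error 0.10, adjusted p = 0.713). These 5 are the members under an unadjusted p of 0.05. When each tumor was left out in turn, the count of higher members was 3 without Trim11+/+ tumor 1 or Trim11+/- tumor 1, 1 without Trim11+/- tumor 3, and 0 without Trim11+/+ tumor 2, Trim11+/+ tumor 3 or Trim11+/- tumor 2. Lower members numbered 2 without Trim11+/+ tumor 3 and 3 without Trim11+/- tumor 3. The shares of all genes in these runs are not given, so the counts cannot be set against them.

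**Figure D2:**
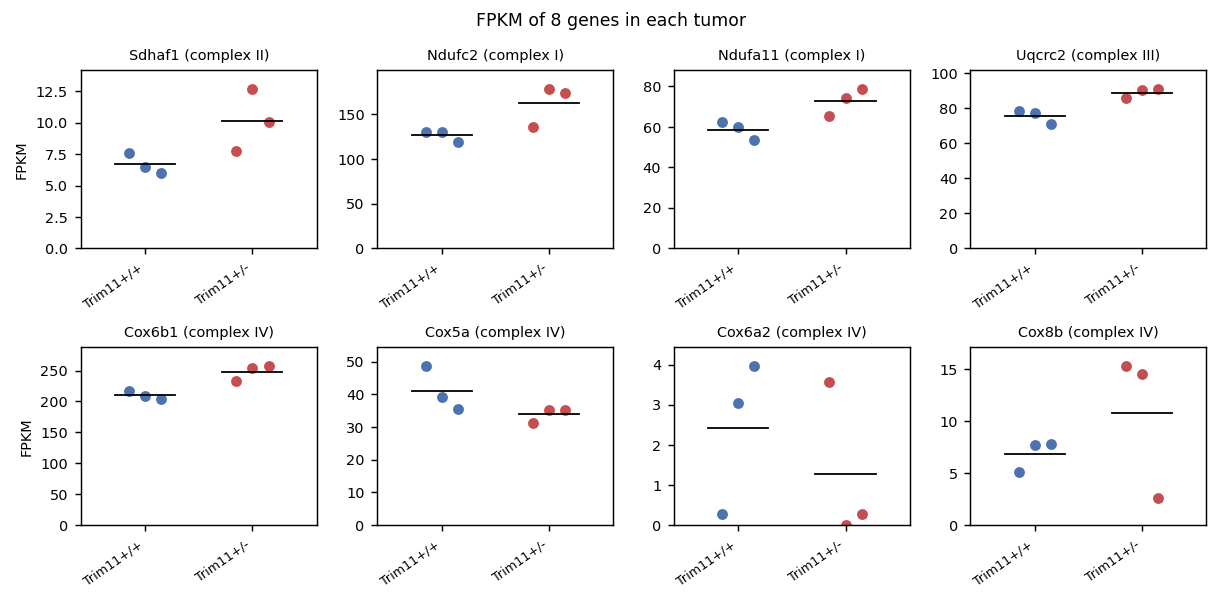
FPKM (vertical axes, from 0) of 8 members in each of 3 Trim11+/+ and 3 Trim11+/- tumors, points for tumors and lines for means. For Sdhaf1, Ndufc2, Ndufa11, Uqcrc2 and Cox6b1 every Trim11+/- point lies above every Trim11+/+ point, for Cox5a every one lies below, and for Cox6a2 and Cox8b the genotypes overlap.

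Of these 5 genes, 4 lie on mouse chromosome 7 of mm10, Cox6b1 from 30616861 to 30626151, Sdhaf1 from 30321406 to 30323895, Ndufc2 from 97400003 to 97407802 and Uqcrc2 from 120635176 to 120659524. The fifth, Ndufa11, lies on chromosome 17 from 56717767 to 56722141. Chromosome 7 holds 12 members, with a median log2 difference of 0.23 and 9 of them higher, and the 87 members with a position elsewhere or none had a median of 0.02. All 7 members on chromosome 17 were higher, with a median of 0.20. The same 2 chromosomes had the highest medians over all genes, 0.083 for 1343 genes on chromosome 7 and 0.10 for 799 on chromosome 17. Chromosome 11, which carries Trim11, followed with 0.077 for 1405 genes and 0.10 for its 6 members. At an unadjusted p under 0.05, 7.30% of all genes on chromosome 7 and 9.51% on chromosome 17 were higher. Library by library, the median over all genes of chromosome 7 was -0.04, -0.05 and -0.05 in Trim11+/+ and 0.09, 0.12 and -0.07 in Trim11+/- tumors. That of chromosome 17 was -0.01, -0.06 and -0.08 against -0.002, 0.04 and 0.11. Trim11+/- tumors 1 and 2 were thus high for all genes of chromosome 7 and tumor 3 was not, while tumor 3 was the highest for chromosome 17. The 12 members on chromosome 7 had medians of -0.09, 0.02 and -0.18 in Trim11+/+ and 0.04, 0.21 and 0.03 in Trim11+/- tumors. Sdhaf1 and Ndufc2 were highest in Trim11+/- tumor 2, and Uqcrc2 and Cox6b1 in Trim11+/- tumor 3. This grouping by chromosome was looked at after the 5 genes were known, and its part in their values was not tested.

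**Figure D3:**
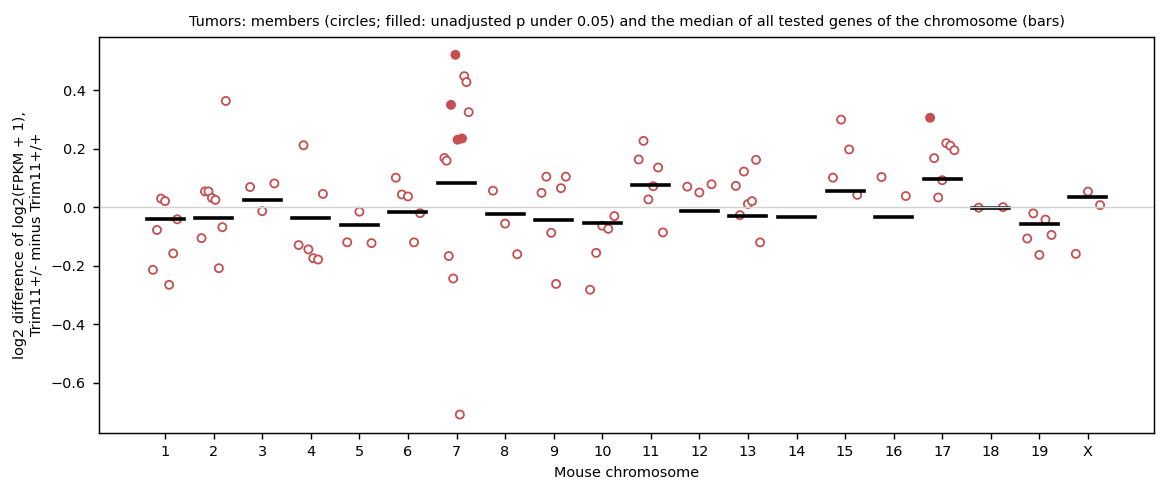
Log2 difference between Trim11+/- and Trim11+/+ tumors (vertical axis) of each member with a position (circles, filled at an unadjusted p under 0.05), by mouse chromosome, with the median of all tested genes of the chromosome (bars). The filled members lie on chromosomes 7 and 17, whose bars, at 0.08 and 0.10, are the highest.

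Of the 10 subunits Ndufs1, Ndufv1, Sdha, Sdhb, Uqcrc1, Uqcrfs1, Cox4i1, Cox5b, Atp5a1 and Atp5b, none reached an unadjusted p of 0.05, and their log2 differences lay between -0.18 for Sdhb and 0.16 for Uqcrfs1. Ndufs1 and Ndufv1, which carry electrons through the arm of complex I in the matrix, differed by 0.03 and -0.16, and Sdha, which binds succinate, by 0.01. Uqcrc1 and Cox5b differed by -0.09 and -0.04. Atp5a1 and Atp5b, the catalytic head of ATP synthase, differed by 0.0002 and -0.07. Cox4i1 was 236, 212 and 208 in Trim11+/+ tumors and 192, 199 and 195 in Trim11+/- tumors, with all Trim11+/- tumors below all Trim11+/+ tumors and a log2 difference of -0.16 (standard error 0.10, adjusted p = 0.779). Cox5a, one of the early subunits in the assembly of complex IV, was 48.6, 39.3 and 35.5 in Trim11+/+ tumors and 31.3, 35.2 and 35.1 in Trim11+/- tumors, likewise without overlap, with a difference of -0.26 (standard error 0.13, adjusted p = 0.735). Ndufa12 was 30.7, 23.4 and 19.8 in Trim11+/+ tumors and 15.1, 17.8 and 28.6 in Trim11+/- tumors, an overlap of the genotypes, with a difference of -0.28 (standard error 0.26, adjusted p = 0.85). Sdhaf4, a chaperone of Sdha, differed by -0.27 (standard error 0.14, adjusted p = 0.751). The gene copy Ndufs6b and the pseudogene Atp5k-ps2, both below 10 FPKM, differed by -0.24 and 0.36, and reads of such copies and of their parent genes may be shared between the entries.

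The muscle and brown fat isoforms varied between single tumors. Cox6a2, the heart and muscle form of subunit 6A, was 0.269, 3.04 and 3.96 in Trim11+/+ tumors and 3.57, 0 and 0.274 in Trim11+/- tumors (FPKM), from 2, 21, 27 reads in Trim11+/+ and 27, 0, 2 in Trim11+/- tumors. It was high in Trim11+/+ tumors 2 and 3 and Trim11+/- tumor 1 and near 0 in the other 3. The sum of 10 skeletal muscle markers was 37.9, 160.0 and 279 FPKM in Trim11+/+ and 361, 19.2 and 12.8 in Trim11+/- tumors, and Tnni2, Myh1, Myh2 and Myh4 were all listed at 0 in Trim11+/- tumor 2. The log2 difference of Cox6a2 between genotypes was -0.71 (standard error 0.72, adjusted p = 0.863). Cox8b, known from muscle and brown fat, was 5.08, 7.65 and 7.75 in Trim11+/+ tumors and 15.2, 14.5 and 2.58 in Trim11+/- tumors, with 20, 28, 28 reads in Trim11+/+ and 61, 46, 10 in Trim11+/- tumors. The sum of 6 adipocyte markers was 55.2, 393 and 89.3 against 330.0, 177 and 26.7 FPKM. Ucp1, which defines brown adipocytes, was at 1.32 FPKM or lower in every tumor and at 0 in 3. Cox7a1 was 4.62, 8.64 and 6.52 in Trim11+/+ tumors and 7.90, 7.23 and 12.5 in Trim11+/- tumors and Cox6b2 0.165, 1.86 and 1.26 in Trim11+/+ tumors and 3.17, 1.74 and 0.672 in Trim11+/- tumors, with differences of 0.43 (standard error 0.26, adjusted p = 0.777) and 0.45 (standard error 0.44, adjusted p = 0.861). The part of muscle and fat in these values was not tested.

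The cell line groups were first set beside the 1 Control library, with no test. A fold of at least 1.5 in both lines of a group was rare among the members. In TRIM11-KD 0 of 90 members were that far above Control and 1 was below, NDUFB7, against 3.25% and 2.58% of all 12636 genes tested. In KDM5C-KD 1 was above, COX6B2, and 0 below, against 5.22% and 3.97%. In DKD 1 was above, NDUFB3, and 1 below, COX6B2, against 5.71% and 4.87%. Directions without a limit on the fold were also counted. Both lines labelled TRIM11-KD were below Control for 57 members, 63.3% against 36.6% of all genes, and above it for 13, 14.4% against 32.6%. Both KDM5C-KD lines were below for 43 members and above for 23, 47.8% and 25.6% against 36.7% and 34.7%. For DKD the numbers were 32 below and 33 above, 35.6% and 36.7% against 36.7% and 35.7%. The median log2 ratio of the members was -0.14 in TRIM11-KD, -0.07 in KDM5C-KD and -0.02 in DKD, and that of all genes between -0.02 and -0.01. All 3 comparisons share the Control library, and leaving out either line of a group gave members' medians of -0.17 to -0.11, -0.08 to -0.035 and -0.03 to 0.02.

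Control had the highest value for more members than the lowest. Control was the highest of the 7 libraries for 22 members, 24.4% against 16.1% of all genes, of which 13 belong to complex I, 3 to complex II, 4 to complex IV and 2 to complex V. It was the lowest for 7 members, 7.78% against 13.6%. NDUFB7, an accessory subunit of the membrane arm, was 234 in Control, 150.2 and 152 in TRIM11-KD, 146 and 173 in KDM5C-KD, and 166 and 169.7 in DKD (FPKM). No other line was above 173 FPKM. NDUFA13, which links complex I to apoptosis under its other name GRIM-19, was 248 in Control, 173 and 180.2 in TRIM11-KD, 192 and 212 in KDM5C-KD, and 185 and 193 in DKD, and NDUFA12 was 207 in Control, 161 and 134 in TRIM11-KD, 163 and 173 in KDM5C-KD, and 145 and 156 in DKD. NDUFA3 was 143 in Control, 93.8 and 124 in TRIM11-KD, 99.6 and 96.6 in KDM5C-KD, and 116 and 143 in DKD, so that DKD2 came close to Control. COX6A1 and COX7C, small subunits of complex IV, were also highest in Control, at 469 and 617 FPKM against at most 393 and 518 elsewhere. NDUFAB1, the acyl carrier protein of mitochondria, went the other way, at 68.9 in Control, 93.6 and 87.5 in TRIM11-KD, 106 and 91.4 in KDM5C-KD, and 96.2 and 89.6 in DKD. With 1 Control library, its own error and a difference from the other lines cannot be told apart.

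The 4 members that were higher with a KDM5C guide at an unadjusted p under 0.05, NDUFB3, UQCRFS1, COX5A and ATP5F1, are subunits of complexes I, III, IV and V. Lines with this guide were compared with lines without one in an additive limma fit over all 7 libraries, with the TRIM11 guide as the second term. The members' median log2 difference was 0.03, against 0.0015 over all genes, and 55 of 90 were higher. Complexes III and IV had medians of 0.12 and 0.14, complex V 0.07, complex I 0.01 and complex II -0.03. At an unadjusted p under 0.05, 4 members were higher, 4.44% against 5.87% of all genes, and 0 lower, against 5.18%. No member passed an adjusted p of 0.05, with a lowest value of 0.383, and 1 gene of all did, 0.00791%. EPCAM, at 10.3 to 12.3 FPKM with the guide and 4.03 to 6.77 without it, did not overlap between these lines, and the part of such a difference in the members' values was not tested. UQCRFS1, the Rieske iron-sulfur protein of complex III, was 79.2 in Control, 80.4 and 91.6 in TRIM11-KD, 115 and 88.7 in KDM5C-KD, and 111 and 98.8 in DKD (FPKM). COX5A was 96.0 in Control, 97.9 and 121 in TRIM11-KD, 149.6 and 119 in KDM5C-KD, and 137 and 128 in DKD. For both, KDM5C-KD1 was the highest line and Control the lowest. Their log2 differences were 0.31 (standard error 0.12, adjusted p = 0.427) and 0.36 (standard error 0.12, adjusted p = 0.409). NDUFB3 had a difference of 0.37 (standard error 0.10, adjusted p = 0.383), with both DKD lines above all others, and ATP5F1, part of the stalk of ATP synthase, one of 0.20 (standard error 0.08, adjusted p = 0.434). NDUFS7 and ATP5G2 followed, with 0.24 and 0.24. At the low end, NDUFB11, COX6B2, NDUFAF7, SDHAF1 and COX7A2 had differences between -0.25 and -0.18 that missed the threshold. Of the core subunits, NDUFS1, NDUFV1, SDHA, SDHB, UQCRC1, COX4I1, COX5B, ATP5A1 and ATP5B lay between -0.15 and 0.20. Without the Control library the members' median was 0.14, with 2 members lower. Without TRIM11-KD1 or DKD1 1 member was higher, and without TRIM11-KD2, KDM5C-KD2, DKD1 or DKD2 1 was lower. These counts, too, stand without the shares of all genes in the same runs.

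Among lines labelled with a TRIM11 guide, SDHA, NDUFV1, NDUFB3 and COX5B were higher and ATP5S, NDUFAF4, NDUFAF1 and NDUFA12 lower at an unadjusted p under 0.05. The 4 lines were compared with the others in the same fit, and 2 of them, TRIM11-KD1 and DKD1, had no less TRIM11 mRNA than Control. The median log2 difference of the members was -0.03, against -0.0076 over all genes, with 38 higher and 52 lower. At an unadjusted p under 0.05, 4 members were higher and 4 lower, 4.44% each, against 5.19% and 5.48% of all genes. By adjusted p 0 members and 0% of all genes passed, the lowest value being 0.448. All 4 higher members were subunits, as were 75 of all 90 members. SDHA, the flavoprotein of succinate dehydrogenase, was 103 in Control, 111 and 141 in TRIM11-KD, 104 and 82.2 in KDM5C-KD, and 124 and 141 in DKD (FPKM), with every line labelled with a TRIM11 guide above the others and a log2 difference of 0.42 (standard error 0.14, adjusted p = 0.448). NDUFV1, which binds NADH, COX5B and NDUFB3 had differences of 0.30 (standard error 0.11, adjusted p = 0.448), 0.32 and 0.34. The additive fit has no term for the guides in combination, and NDUFB3 and NDUFV1 were highest in both DKD lines. NDUFB3 was 45.7 and 45.6 FPKM in TRIM11-KD, against 41.6 in Control and 49.5 in KDM5C-KD1. NDUFV1 was 78.6 and 88.6 in TRIM11-KD, against 78.2 in Control. Of the 4 lower members, 3 were assembly or accessory factors, which made up 11 of the 90 members. ATP5S, known as coupling factor B, was 8.96 in Control, 7.74 and 6.84 in TRIM11-KD, 8.17 and 10.5 in KDM5C-KD, and 6.73 and 4.93 in DKD, with no overlap and a difference of -0.47 (standard error 0.15, adjusted p = 0.448). NDUFAF4 and NDUFAF1, which help to build complex I, differed by -0.30 and -0.28, and the fourth, NDUFA12, by -0.29. ATP5C1 and ATP5I at the high end, with 0.43 and 0.38, and COX6B2 and SDHAF1 at the low end, with -0.77 and -0.31, missed the threshold. The remaining core subunits NDUFS1, SDHB, UQCRC1, UQCRFS1, COX4I1, ATP5A1 and ATP5B lay between -0.10 and 0.22. Without Control the members' median turned to 0.045 and 10 members were higher. Higher members numbered 9 without TRIM11-KD1, 2 without TRIM11-KD2 or KDM5C-KD2 and 1 without DKD2. Lower members numbered 2 without TRIM11-KD2 or DKD2 and 1 without KDM5C-KD2 or DKD1. With a library left out, shares of all genes are not given, so the counts cannot be set against them.

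DKD was compared with KDM5C-KD over the 6 knockdown libraries, which asks what the added TRIM11 guide does in lines with a KDM5C guide. Both DKD lines carry the second KDM5C guide, as does KDM5C-KD2, while KDM5C-KD1 carries the first, so that the added guide and the change of KDM5C guide cannot be told apart in the comparison with KDM5C-KD1. The 10 higher members were all subunits, from complexes I, II, IV and V, and 3 of the 4 lower ones were assembly or accessory factors. Most members are subunits, 75 of 90, of which 13.3% were higher and 1.33% lower at an unadjusted limma p under 0.05. Of the 11 assembly or accessory factors 0% were higher and 27.3% lower. A difference between these classes was not tested. At an unadjusted p under 0.05, 11.1% of the members were higher and 4.44% lower, against 5.86% and 5.80% of all genes. No member and 0% of all genes passed an adjusted p of 0.05, and the lowest adjusted p of a member was 0.379. The median log2 difference was 0.045 for the members, 0.13 for complex V and 0.0008 for all genes. The 2 DKD lines did not overlap with the 2 KDM5C-KD lines for 26 higher and 11 lower members, 28.9% and 12.2% against 21.3% and 22.0% of all genes. In either direction 41.1% of all members did not overlap, while of all genes 21.3% were higher and a further 22.0% lower. By complex the share in either direction was 40.9% for I, 37.5% for II, 25% for III and 23.1% for IV. In complex V it was 64.7%, 11 of 17 members. Of these, ATP5S and the joint entry of ATP5E were lower and the rest higher. Without KDM5C-KD2 there were 2 higher and 2 lower members, without DKD2 there were 3 higher, and without DKD1 the median was 0.092. Without KDM5C-KD1, which leaves the line with the matched KDM5C guide, there were 8 higher and 6 lower members and the median was 0.011. These comparisons share the DKD and KDM5C-KD libraries with those by guide, so that their lists of genes are not independent. The counts with a library left out stand without the shares of all genes.

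ATP5C1, the gamma subunit that turns inside the head of ATP synthase, was 182 in Control, 164 and 185 in TRIM11-KD, 158 and 86.6 in KDM5C-KD, and 202 and 194 in DKD (FPKM). KDM5C-KD2 was far below every other line, and KDM5C-KD1 was next. The log2 difference of ATP5C1 was 0.76 (standard error 0.27, adjusted p = 0.394), and without KDM5C-KD2 it was 0.33 and missed an unadjusted p of 0.05. ATP5A1 was 244 in Control, 221 and 223 in TRIM11-KD, 210.3 and 158 in KDM5C-KD, and 265 and 239 in DKD, again with KDM5C-KD2 lowest, and the difference was 0.46 (standard error 0.16, adjusted p = 0.389). ATP5I, in the part of the membrane domain where synthase dimers meet, was 153 in Control, 140.4 and 188 in TRIM11-KD, 118 and 109 in KDM5C-KD, and 149 and 193 in DKD, and ATP5G3, 1 of 3 genes for the rotating c ring, was 44.6 in Control, 39.4 and 49.8 in TRIM11-KD, 42.6 and 40.4 in KDM5C-KD, and 56.3 and 61.4 in DKD. For ATP5I both KDM5C-KD lines were the lowest, for ATP5G3 both DKD lines were the highest, and the differences were 0.58 and 0.49. ATP5S, highest in KDM5C-KD2 and lowest in DKD2, differed by -0.60 (standard error 0.20, adjusted p = 0.388). The other c ring genes, ATP5G1 and ATP5G2, had differences of -0.01 and 0.14 and missed the threshold, as did ATP5B, with 0.11.

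In complex I, NDUFB3, a small subunit of the membrane arm, was 41.6 in Control, 45.7 and 45.6 in TRIM11-KD, 49.5 and 44.2 in KDM5C-KD, and 66.4 and 64.2 in DKD (FPKM). Both DKD lines were above all 5 other lines, which lay close together. The log2 difference from KDM5C-KD was 0.47 (standard error 0.11, adjusted p = 0.379), and it stayed under an unadjusted p of 0.05 in each of 15 alternatives, as did those of NDUFV1, SDHAF1 and COX6B2. NDUFV1 was 78.2 in Control, 78.6 and 88.6 in TRIM11-KD, 81.6 and 74.4 in KDM5C-KD, and 107 and 103 in DKD, with both DKD lines highest and a difference of 0.43 (standard error 0.12, adjusted p = 0.379). NDUFS3 and NDUFS8, further core subunits of the matrix arm, had differences of 0.43 and 0.31, and NDUFS1, of the same arm, had -0.05. NDUFAF4 was 7.38 in Control, 6.02 and 6.75 in TRIM11-KD, 8.30 and 9.39 in KDM5C-KD, and 6.49 and 6.71 in DKD, with a difference of -0.37 (standard error 0.14, adjusted p = 0.405).

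Of the 4 subunits of complex II, SDHA alone passed an unadjusted p of 0.05. SDHA differed by 0.51 (standard error 0.18, adjusted p = 0.389), SDHB by 0.02, SDHC by 0.11 and SDHD by 0.08. SDHAF1 was 10.05 in Control, 10.6 and 11.6 in TRIM11-KD, 12.5 and 11.9 in KDM5C-KD, and 7.35 and 7.96 in DKD (FPKM), lowest in both DKD lines, and its difference was -0.61 (standard error 0.13, adjusted p = 0.379). In complex IV, COX5B was 205 in Control, 213 and 251 in TRIM11-KD, 228 and 191 in KDM5C-KD, and 257 and 308 in DKD, with a difference of 0.43 (standard error 0.16, adjusted p = 0.404). KDM5C-KD2 was the lowest line. COX4I1, UQCRC1 and UQCRFS1 differed by -0.03, 0.02 and 0.05. COX6B2 was 1.16 in Control, 2.66 and 0.706 in TRIM11-KD, 2.30 and 2.93 in KDM5C-KD, and 0.336 and 0.360 in DKD, with DKD at 0.348 ± 0.0174 and KDM5C-KD at 2.61 ± 0.444 (SD, 2 lines each), and its difference on the log2(FPKM + 1) scale was -1.42 (standard error 0.36, adjusted p = 0.379). The lines labelled TRIM11-KD1 and TRIM11-KD2 stood apart from each other, and Control lay between them. COX7B2 differed by -0.81 (standard error 0.41, adjusted p = 0.491), and its DKD2 value was above that of KDM5C-KD1.

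**Figure D4:**
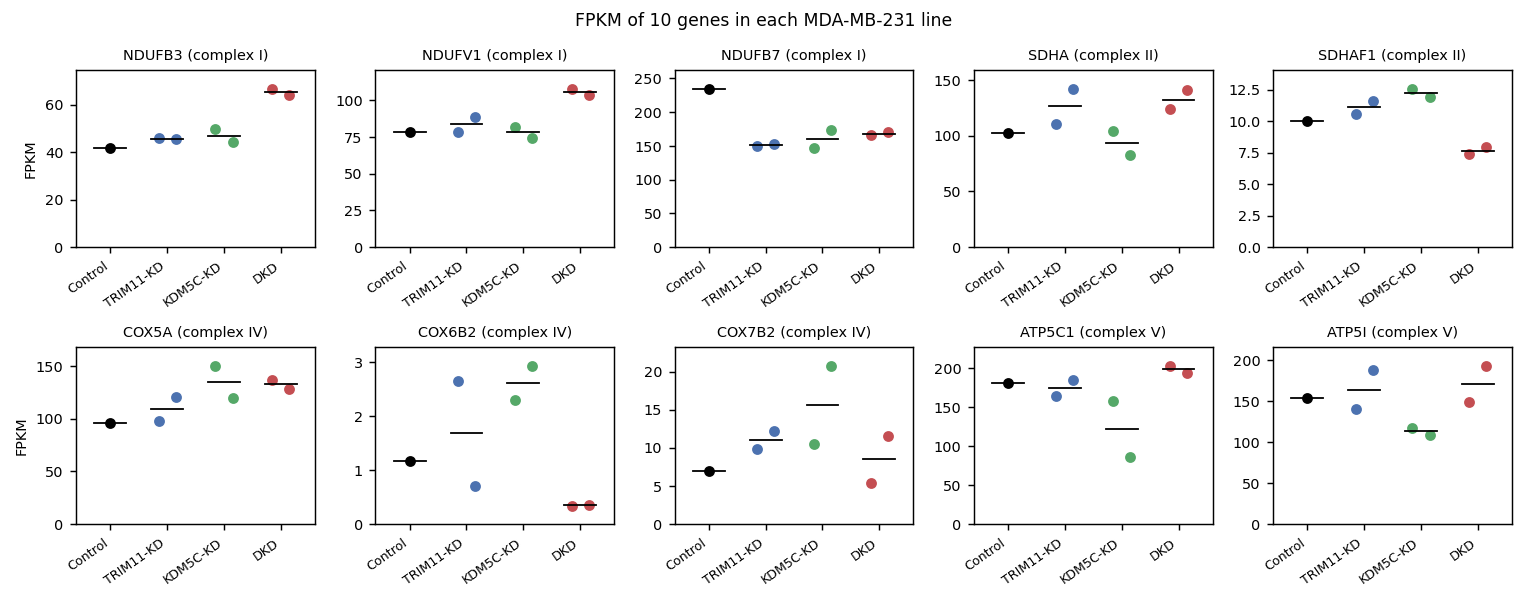
FPKM (vertical axes, from 0) of 10 members in each MDA-MB-231 line, points for lines and horizontal bars for group means, with 1 Control line and 2 lines in each other group. Both DKD lines are highest for NDUFB3 and NDUFV1 and lowest for SDHAF1 and COX6B2, Control is highest for NDUFB7, and KDM5C-KD2 is lowest for ATP5C1.

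**Figure D5:**
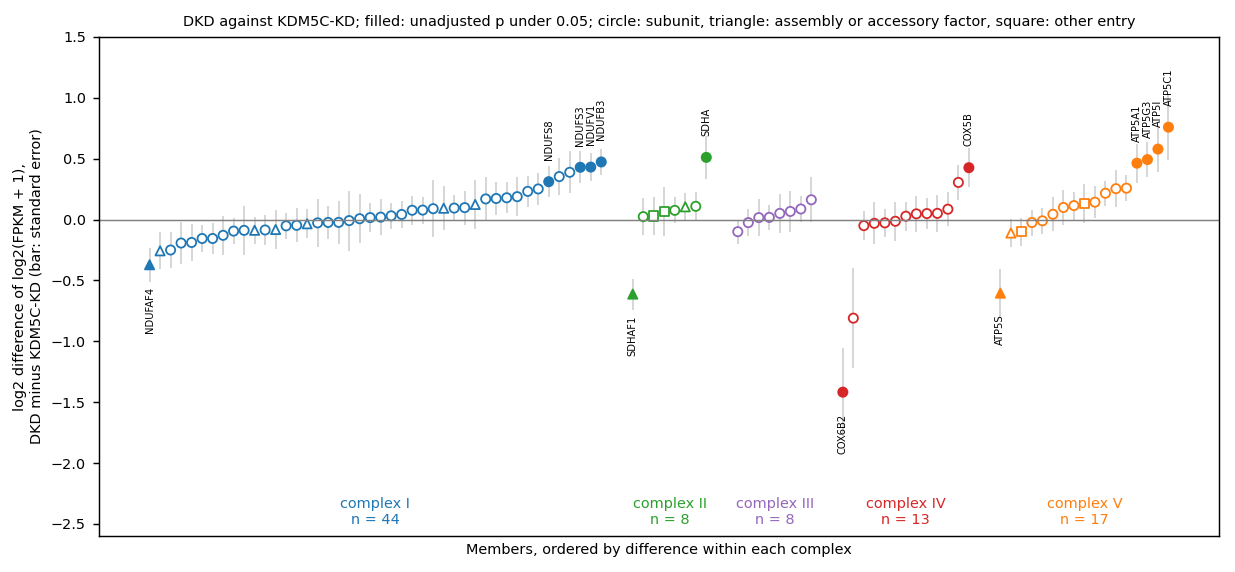
Log2 difference between DKD and KDM5C-KD (vertical axis, bars for 1 standard error) of all 90 members, ordered within each complex, filled at an unadjusted p under 0.05, with circles for subunits and triangles for assembly or accessory factors. The 10 filled members above 0 are circles, and 3 of the 4 filled members below 0 are triangles. Of all 90 members 75 are subunits and 11 are assembly or accessory factors.

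The promoters of the cell line members were read from RefSeq for GRCh38.p14, from 250 bases before to 50 bases after each transcription start, in which 74 of 90 members had an entry. They were searched on both strands for motifs of factors known to act at genes of the respiratory chain, GCGCATGCG for NRF1, CCGGAAG for GABP and other ETS factors, and AAGATGGC for YY1. The NRF1 motif was in 14.9% of the members' promoters, in 2.1% of all 27305 promoters, in 2.76% of 15842 protein-coding ones and in 3.72% of the 8845 of genes tested here. The ETS motif was in 28.4%, 10.7%, 14.2% and 19.8%, and the YY1 motif in 14.9%, 3.03%, 3.91% and 5.61%. At least 1 motif was in 36 of 74, 48.6%, against 14.6%, 19.2% and 26.5%, and 6 members held more than 1. By complex, at least 1 motif was in 42.1%, 60.0%, 57.1%, 41.7% and 66.7% of the promoters of complexes I to V. These shares rest on 38, 5, 7, 12 and 12 promoters, so that a single gene moves the smaller ones by much. Of the members higher in DKD than in KDM5C-KD 4 of 9 with an entry held a motif, and of the lower ones 1 of 3. Sequences are shown for ATP5C1 and COX5B, which differed in DKD and held motifs, for NDUFB3, which differed and held none, and for COX6B1 with its testis isoform COX6B2. They lie at chr10:7787927-7788226, chr2:97645812-97646111, chr2:201071751-201072050 and chr19:35648073-35648372 on the plus strand and at chr19:55354670-55354969 on the minus strand, are written 5′ to 3′ along the gene, and have the motifs in capitals.
ATP5C1: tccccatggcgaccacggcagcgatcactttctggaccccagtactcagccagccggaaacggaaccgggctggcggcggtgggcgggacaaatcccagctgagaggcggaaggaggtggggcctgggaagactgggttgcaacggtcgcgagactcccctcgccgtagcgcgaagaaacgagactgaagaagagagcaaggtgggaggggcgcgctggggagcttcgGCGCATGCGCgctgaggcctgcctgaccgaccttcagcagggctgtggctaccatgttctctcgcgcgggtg
COX5B: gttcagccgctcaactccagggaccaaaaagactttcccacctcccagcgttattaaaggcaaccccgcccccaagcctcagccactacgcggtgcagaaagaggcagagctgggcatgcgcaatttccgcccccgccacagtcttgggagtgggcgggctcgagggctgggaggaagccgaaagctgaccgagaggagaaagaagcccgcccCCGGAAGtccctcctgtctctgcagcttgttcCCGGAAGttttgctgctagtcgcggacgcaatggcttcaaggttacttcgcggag
NDUFB3: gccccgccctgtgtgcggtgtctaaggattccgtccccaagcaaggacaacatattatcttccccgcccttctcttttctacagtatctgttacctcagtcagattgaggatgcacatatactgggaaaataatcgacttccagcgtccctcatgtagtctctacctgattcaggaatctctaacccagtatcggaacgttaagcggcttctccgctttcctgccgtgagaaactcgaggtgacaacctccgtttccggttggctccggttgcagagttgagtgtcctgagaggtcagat
COX6B1: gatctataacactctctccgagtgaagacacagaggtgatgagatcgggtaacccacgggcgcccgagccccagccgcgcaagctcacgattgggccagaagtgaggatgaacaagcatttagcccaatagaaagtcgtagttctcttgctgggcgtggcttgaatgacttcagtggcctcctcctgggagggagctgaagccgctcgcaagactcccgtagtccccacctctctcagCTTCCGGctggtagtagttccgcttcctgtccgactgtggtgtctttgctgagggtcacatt
COX6B2: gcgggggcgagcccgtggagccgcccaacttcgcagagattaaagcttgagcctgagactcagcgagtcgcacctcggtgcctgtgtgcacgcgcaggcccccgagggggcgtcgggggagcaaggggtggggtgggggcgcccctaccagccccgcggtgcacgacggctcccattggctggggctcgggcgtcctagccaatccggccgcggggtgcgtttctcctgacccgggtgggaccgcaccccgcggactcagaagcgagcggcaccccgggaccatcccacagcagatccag
In ATP5C1 the capitals are a single NRF1 palindrome that starts at -22 from the transcription start and matches on both strands with 1 base of shift. COX5B holds the ETS motif at -37 and at -5, and COX6B1 its reverse complement at -12. No motif was found in NDUFB3 and COX6B2, which says only that these letters are not in these windows. A match is a description of the sequence, and binding was not measured in these data.

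The neighbors of the pathway gave the following. In the tumors the 13 mitochondrially encoded subunits had a median log2 difference of 0.07, with 9 higher, against 49.1% of all genes. Of these subunits, 0 were under an unadjusted limma p of 0.05. The median was -0.02 for 38 assembly factors outside the names that define members and -0.04 for 17 genes of the TCA cycle. For 14 genes of cytochrome c and coenzyme Q it was -0.05, and for 15 regulators of mitochondrial biogenesis -0.06. Under that threshold 1 of all these genes, a regulator, was lower and 0 higher, against 3.29% and 3.65% of all genes. Glycolysis, with 16 genes, and the proteasome, with 31, had 0.02 and 0.05 and no gene under the threshold. In DKD against KDM5C-KD the proteasome had a median of 0.12, with 24 of 31 genes higher, against 50.1% of all genes. Of the 31, 2 were higher at an unadjusted limma p under 0.05, against 5.86% of all genes. The median was 0.07 for the TCA cycle over 17 genes and 0.08 for glycolysis over 16. It was 0.04 for the mitochondrial ribosomal proteins over 74 and 0.03 for the cytosolic ones over 72. The 12 genes of cytochrome c and coenzyme Q had -0.10, and 34 assembly factors outside the names that define members had -0.04. Of these factors, which do not include those among the members, 3 were lower and 0 higher at an unadjusted p under 0.05, against 5.80% and 5.86% of all genes. For lines labelled with a TRIM11 guide, 7 of these 34 factors were lower and 0 higher, against 5.48% and 5.19%. For the KDM5C guide 1 was lower and 0 higher, against 5.18% and 5.87%. Differences between the guides were not tested. None of the lists named here held a gene under an adjusted p of 0.05 in limma.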

How the data were processed

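RNA-Seq libraries were made from poly(A) RNA without strand information and sequenced in pairs. Per the study's methods, the authors mapped reads with HISAT2 to mm10 or hg19 and ran Cufflinks with default parameters, and they deposited 1 table of FPKM values per species. Of 137896 tumor values above 0, 98.8% were whole reads within 0.02 of a read, which gave each tumor library's total. Depth of the cell line values is unknown, so no counting error is given. Rows sharing a symbol were reduced to the one with the highest mean, and 27 human symbols turned into dates were dropped. Genes with a mean of at least 0.5 FPKM were tested, 17328 in tumors and 12636 in cell lines, on log2(FPKM + 1) with limma 3.58.1 in R 4.3.3 (lmFit, eBayes with trend) and Benjamini-Hochberg adjustment. A fold understates the change of low genes on this scale. The fit was tested on simulated data. For single genes the tumors were permuted in an exact two-sided test.

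Tumors were compared by genotype. Cell lines were compared by KDM5C and TRIM11 guide in an additive model, DKD with KDM5C-KD over 6 libraries, and each group with Control by a fold of 1.5 in both lines, with no test. The labels do not say that lines of a group are separate cultures, so p-values measure the spread between libraries. Members and gene lists were chosen with earlier results of these data known. Genes named are 10 core subunits, the tissue isoforms, the highest member of each complex, the 5 highest and 5 lowest differences of each test, the 3 highest and 3 lowest ratios to Control, members under p 0.05, and symbols beside the 1 FPKM limit. Genes named for other reasons, such as those at the extremes in Control, were picked after their values were seen. Alternatives were a pseudocount of 0.1, other filters, scaling by median ratios or totals, eBayes without trend, a replicate block, each library left out, other member lists and other folds. Chosen after seeing the data were voom on recovered reads, the TRIM11 guide as a block, and 2 tumors left out together. Positions come from GENCODE annotations of hg19 and mm10. Tables were made in Python 3.11.15 (pandas 2.3.3, scipy 1.17.1, numpy 2.4.6) and figures with matplotlib 3.10.9.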

Additional observations from a re-analysis of the deposited data

How the results depend on the processing

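No member passed an adjusted p of 0.05 under any alternative run. The counts of members below are given without the share of all genes in the same run. In the tumors, 5 higher and 0 lower members at an unadjusted p under 0.05 became 3 higher without trend, 0 higher with a replicate block, 2 higher and 1 lower without Trim11+/+ tumor 1 and Trim11+/- tumor 3, and 4 higher and 1 lower with any mean above 0 tested, where Cox6b1 was lost. With each tumor left out they ranged from 0 to 3 higher and from 0 to 3 lower. Voom on recovered reads gave 5 higher and 0 lower. For the KDM5C guide, with each library left out, 1 to 6 members were higher and 0 to 2 lower, and the median log2 difference lay between -0.001 and 0.143. For the TRIM11 guide these ranges were 1 to 10, 1 to 6 and -0.062 to 0.045. With the 6 knockdown libraries only, 10 were higher and the median was 0.045. For DKD against KDM5C-KD they were 2 to 11, 2 to 6 and 0.011 to 0.092. With subunits only, or members of at least 10 FPKM, 1 member was lower in each of the last pair of comparisons.

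Against Control, a limit of 0.32 on the log2 ratio, in place of 0.58, gave 2 higher and 6 lower members in TRIM11-KD, 3 and 4 in KDM5C-KD and 7 and 6 in DKD. With the mean of the 2 lines 1 member was higher in TRIM11-KD, 2 were higher in KDM5C-KD and 2 lower in DKD. Scaling by median ratios gave 2 higher in KDM5C-KD. Members of at least 10 FPKM gave 0 higher in KDM5C-KD and 0 lower in DKD. With 1 line of a group, TRIM11-KD had 1 higher and 2 to 5 lower, the latter with TRIM11-KD2 alone, KDM5C-KD 2 to 3 higher and 1 to 3 lower, and DKD 1 to 3 higher and 1 to 2 lower. The cause of these changes was not tested, and the shares of all genes at these settings are not given.

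Replicate numbers did not pair the tumors: correlations of same-numbered tumors were -0.33, 0.038 and -0.13. With the replicate number as a block, DKD against KDM5C-KD had 13 higher and 4 lower members, and with the TRIM11 guide as a block 5 members were higher for the KDM5C guide. Same-numbered lines correlated at 0.273 for KDM5C-KD and DKD, 0.371 for TRIM11-KD and DKD, which share the TRIM11 guide, and 0.088 for TRIM11-KD and KDM5C-KD. Left-out libraries that leave 1 line in a group use the spread pooled over the other groups. Of the values for single genes under the other alternatives, 383 kept their side of an unadjusted p of 0.05, 21 lost it and 9 gained it. With each library left out in turn, 221 kept their side, 91 lost it and 17 gained it. Some signs changed there. The difference of COX6B2 for the KDM5C guide ran from -0.89 to 0.198, and that of Ndufs6b in the tumors from -0.546 to 0.108. The depth of the cell line libraries is unknown, so their counting error could not be given.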

Other observations

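In the lines with a KDM5C guide, genes outside the respiratory chain had these log2 differences. The cytosolic ribosomal proteins had a median of 0.10, with 62 of 72 genes higher, against 50.3% of all genes. Under an unadjusted p of 0.05, 3 of them were higher and 1 lower, against 5.87% and 5.18% of all genes. Glycolysis had a median of 0.12 with 12 of 16 genes higher and 1 under that threshold, and the mitochondrial ribosomal proteins 0.04 with 6 of 74 genes higher and 4 lower. In lines labelled with a TRIM11 guide the same lists had medians of -0.02, 0.02 and -0.01. Under that threshold, 3 cytosolic ribosomal proteins, 2 glycolytic genes and 5 mitochondrial ribosomal proteins were lower, and 0, 0 and 3 higher, against 5.48% and 5.19% of all genes. No gene of these lists passed an adjusted p of 0.05 in limma, and differences between the lists were not tested.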
